A study of Drosophila melanogaster with 3 samples.

Results

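Non-coding RNA (ncRNA) genes of Drosophila melanogaster were examined for putzig, a zinc finger protein, at the places where their transcripts begin. All transcription start sites (TSSs) of genes that the Ensembl annotation classes as ncRNA were taken, each with 250 bp to either side. This gave 3424 start sites of 3261 genes on the 6 chromosomes and arms that carry peaks, out of 23998 start sites of 18164 genes in all. A start site was called bound when a summit of the reproducible putzig peak list lay inside its window. The start sites were then divided into 583 that had the TSS of a protein-coding gene within 500 bp on either strand and 2841 that had none.

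The peaks came from chromatin immunoprecipitation followed by sequencing (ChIP-seq) of whole embryos aged 0 to 24 h, with males and females pooled. All 3 samples are biological replicates of 1 group. The flies belong to a line that stably expresses putzig with green fluorescent protein (GFP) at its C-terminus, and every sample carries this transgene, so the series holds no comparison of genotypes, ages or treatments. Which promoter drives the transgene is not stated in the labels. The text description of the libraries speaks of an input control, although the assay and antibody fields name ChIP-seq for putzig, and the labels do not settle the conflict. The libraries were treated here as putzig ChIP-seq. Whole embryos mix all cell types and many stages, so a summit seen in part of the cells and one seen in all of them cannot be told apart.

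Putzig is known from a complex with the TATA-box-binding-protein-related factor Trf2 and the transcription factor Dref, which act at core promoters of many housekeeping genes, and from the nucleosome remodelling complex NURF. Dref recognises the DNA replication-related element (DRE), and the element called Motif 1 is another common sequence of fly housekeeping promoters. Fly ncRNA genes include long ncRNAs (lncRNA), transcripts antisense to another gene (asRNA), host genes whose introns carry small nucleolar RNAs (Uhg genes), and microRNA genes. The ncRNA class of the annotation is wider than genes with a start site of their own. Of the 3424 annotated starts, 741 (21.6%) were the 5′ ends of microRNA hairpins or of mature microRNA products, which are cut from longer transcripts and are not places where transcription begins.

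The sequences under the strongest putzig summits that could be shown here follow, 100 bp to each side of the summit, since they are the DNA the rest of the account refers to. Each is written 5′ to 3′ on the strand of the ncRNA gene, with coordinates in dm6 and letters from the RefSeq genome of the same assembly. Capitals mark matches, on either strand, to TATCGATA (the DRE), GGTCACAC (Motif 1) or TATAAAA (a core promoter element), and a run with no capitals holds none of these or GAGAGAG. The first set of 3 lies beside protein-coding start sites. lncRNA:CR44966 (chrX:765123-765323, plus strand) lies head to head with RpL22, a ribosomal protein gene. lncRNA:CR43130 (chr3R:8820694-8820894, plus strand) lies head to head with aqz at the inner start shown here. sisRNA:CR46364 (chr3R:25247437-25247637, minus strand), annotated as a stable intronic sequence RNA, lies on the same strand as RpS27, also a ribosomal protein gene.
lncRNA:CR44966: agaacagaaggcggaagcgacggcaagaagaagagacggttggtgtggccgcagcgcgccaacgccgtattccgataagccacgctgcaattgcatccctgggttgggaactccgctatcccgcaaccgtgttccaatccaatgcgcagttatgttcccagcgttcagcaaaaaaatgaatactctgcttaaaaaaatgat
lncRNA:CR43130: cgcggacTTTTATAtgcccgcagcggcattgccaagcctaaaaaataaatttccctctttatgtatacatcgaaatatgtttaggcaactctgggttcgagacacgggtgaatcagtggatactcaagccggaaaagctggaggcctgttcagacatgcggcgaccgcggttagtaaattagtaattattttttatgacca
sisRNA:CR46364: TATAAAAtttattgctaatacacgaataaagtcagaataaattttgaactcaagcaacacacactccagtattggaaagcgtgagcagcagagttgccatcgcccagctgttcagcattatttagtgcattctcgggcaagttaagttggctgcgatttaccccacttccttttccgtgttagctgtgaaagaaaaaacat
The second set of 3 has no protein-coding start site within 500 bp. lncRNA:roX2 (chrX:11578933-11579133, plus strand) encodes an RNA of the dosage compensation complex that coats the male X chromosome. lncRNA:CR45433 (chr3L:19861278-19861478, plus strand) and asRNA:CR45009 (chrX:23007569-23007769, plus strand) are named only by number.
lncRNA:roX2: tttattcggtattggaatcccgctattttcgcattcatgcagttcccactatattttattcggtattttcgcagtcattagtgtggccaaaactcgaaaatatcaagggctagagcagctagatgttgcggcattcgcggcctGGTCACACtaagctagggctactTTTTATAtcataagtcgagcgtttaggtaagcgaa
lncRNA:CR45433: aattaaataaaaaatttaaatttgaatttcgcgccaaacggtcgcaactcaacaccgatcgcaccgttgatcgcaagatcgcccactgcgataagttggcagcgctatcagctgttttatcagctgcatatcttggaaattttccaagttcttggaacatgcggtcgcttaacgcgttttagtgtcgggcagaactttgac
asRNA:CR45009: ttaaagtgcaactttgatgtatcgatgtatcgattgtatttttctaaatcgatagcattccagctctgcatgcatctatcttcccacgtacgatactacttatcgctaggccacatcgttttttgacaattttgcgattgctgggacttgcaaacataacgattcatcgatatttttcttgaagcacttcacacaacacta
Counted from 1 at the left end, the annotated start lay at position 166 in the CR44966 run, 77 in CR43130, 133 in roX2, 181 in CR45433 and 104 in CR45009, while that of CR46364 lay just beyond the right end. The Motif 1 match and the TATAAAA match of roX2 both followed its annotated start, whereas the TATAAAA match of CR43130 preceded the start of CR43130. Both TATAAAA matches appear as TTTTATA, so TATAAAA reads on the strand opposite to the ncRNA gene. At CR43130 that is the strand of aqz.

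Few ncRNA start sites carried putzig. A reproducible summit lay within 250 bp of 187 of the 3424 start sites (5.46%), against 7333 of 23998 start sites of all genes (30.6%) and 7111 of 19607 start sites of protein-coding genes (36.3%). These 187 start sites belonged to 174 genes and shared 166 distinct summits, so they are not independent of each other. Start sites near a protein-coding TSS made up 17.0% of the ncRNA start sites and 69.0% of the bound ones.

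With a protein-coding TSS within 500 bp, 129 of 583 ncRNA start sites were bound, which is 22.1% (Wilson 95% interval 18.9 to 25.7). Without such a neighbour, 58 of 2841 were bound, or 2.04% (1.58 to 2.63). The difference was 20.1 percentage points (Newcombe 95% interval 16.9 to 23.7) and the ratio of the shares 10.8. In the strongest 6522 peaks of each replicate, a list as long as the reproducible one, the share with a neighbour was 22%, 21.3% and 23.0% in replicates 1, 2 and 3. The share without a neighbour was 2.08%, 1.80% and 2.60%. No replicate's value of one group came near any value of the other. The difference over replicates was 19.9 ± 0.454 points (SD, n = 3), positive in 3 of 3, and an exact two-sided sign-flip permutation test gave p = 0.25, the smallest that 3 replicates allow. Intervals here cover counting error only. Start sites share summits and neighbours and are not replicates. How many reads stand behind a peak is unknown.

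**Figure D1:**
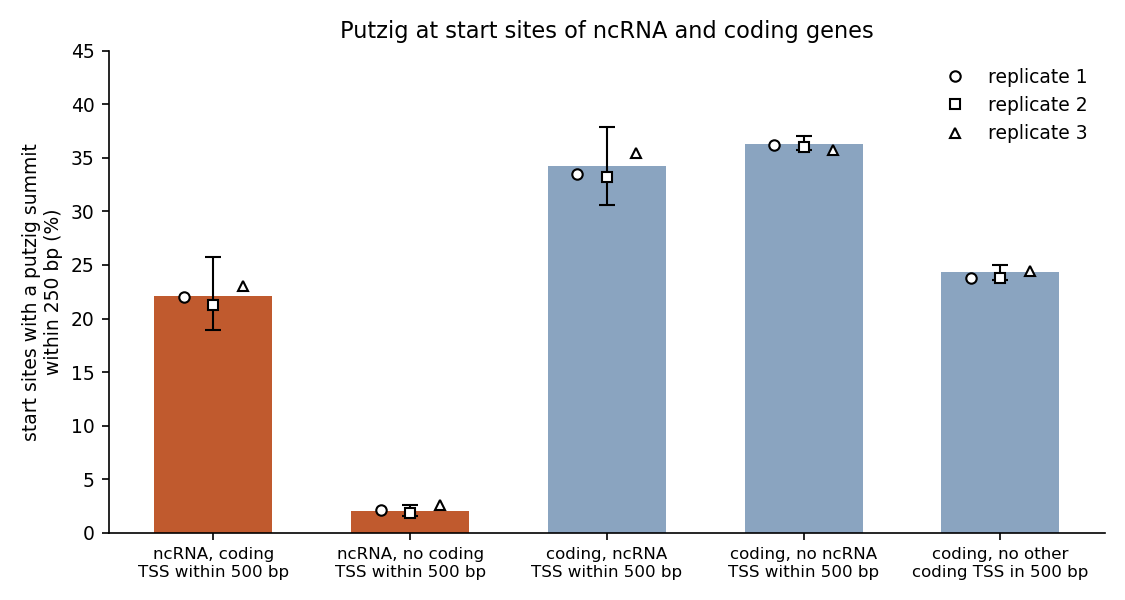
Share of start sites (%) with a reproducible putzig summit within 250 bp, for ncRNA start sites (orange) and protein-coding start sites (blue) split by their neighbours. Bars are the reproducible list with Wilson 95% intervals, and open symbols are the strongest 6522 peaks of each of the 3 replicates: ncRNA start sites stand at 22.1% with a coding neighbour and 2.04% without, and the coding classes between 24.3% and 36.3%.

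The share was lower the farther away the coding start site lay. It was 37.5% (33 of 88) up to 50 bp, 30.4% (17 of 56) from there to 100 bp, 26.3% (59 of 224) from there to 250 bp and 9.30% (20 of 215) from there to 500 bp. Farther away it was 4.40% (18 of 409) to 1000 bp, 3.22% (17 of 528) to 2000 bp, 1.64% (13 of 792) to 5000 bp and 0.899% (10 of 1112) beyond 5000 bp. The intervals of the 3 nearest classes overlapped, so their order was not resolved. Beyond 250 bp those of each pair of adjacent classes overlapped too, also across the limit of 500 bp, with 6.10 to 13.9 below it and 2.80 to 6.85 above it. In the replicates the shares were 8.84%, 10.2% and 10.2% in the class below that limit, and 4.40%, 4.40% and 5.62% in the class above it. Part of this order is geometry, since the windows of 2 start sites less than 500 bp apart overlap, and a single summit can lie in both.

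**Figure D2:**
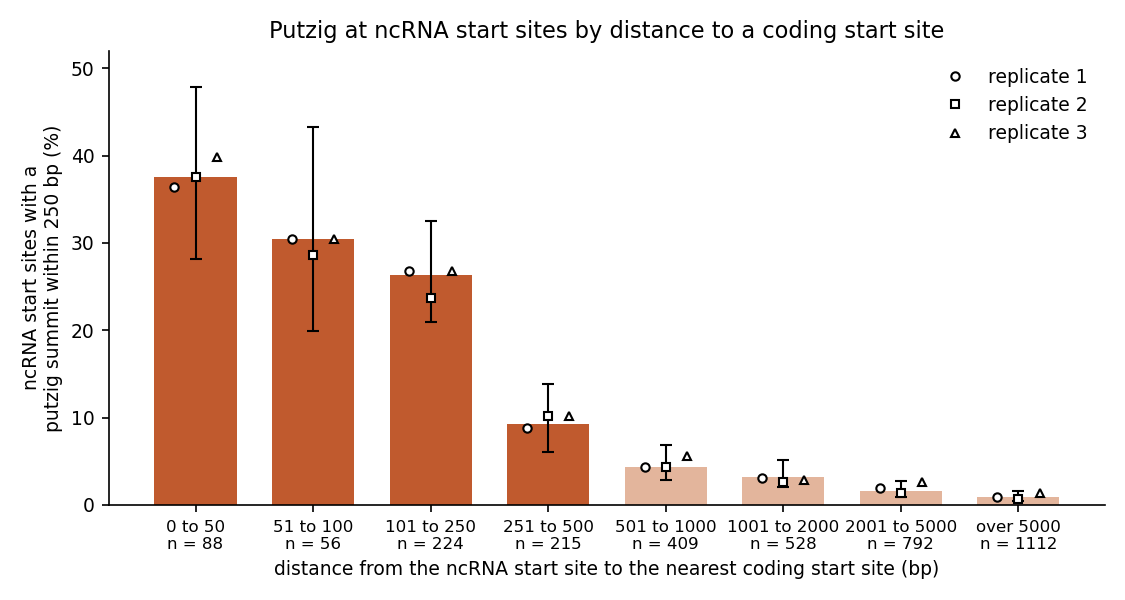
Share of ncRNA start sites (%) with a putzig summit within 250 bp, by distance in bp to the nearest protein-coding start site, with the number of start sites under each bar. Bars are the reproducible list with Wilson 95% intervals and open symbols the 3 replicates: the share is 37.5% up to 50 bp, 9.30% between 250 and 500 bp and 0.899% beyond 5000 bp.

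The share also differed with the arrangement of the genes. Of 285 ncRNA start sites head to head with the coding gene, so that the transcripts run away from each other, 82 were bound (28.8%), with 28.8%, 27.0% and 29.5% in the replicates. Of 144 on the opposite strand with transcripts running over each other 22 were bound (15.3%; replicates 13.9%, 15.3% and 15.3%). On the same strand 25 of 154 were bound (16.2%; replicates 16.9%, 16.2% and 18.2%), and 74 of those 154 were microRNA entries. Every replicate put the head-to-head share above both others. With microRNA entries left out, an alternative chosen after seeing the data, the shares were 27.5% head to head, 15.3% overlapping and 20.0% on the same strand. The intervals of the first (22.6 to 33.1) and last (12.7 to 30.0) then overlapped, so the difference between them was no longer resolved. Between 250 and 500 bp apart, head-to-head start sites were bound in 18 of 104 cases (17.3%, interval 11.2 to 25.7), overlapping ones in 1 of 59 (1.69%, 0.300 to 9.0) and same-strand ones in 1 of 52 (1.92%, 0.340 to 10.1). By construction, the DNA between head-to-head start sites is upstream of both. Up to 250 bp apart the shares were 35.4%, 24.7% and 23.5%, and their intervals overlapped, while each replicate had the head-to-head share highest.

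In the bound start sites with a coding neighbour, the summit was as a rule also the summit of that neighbour. It lay within 250 bp of a coding TSS in 121 of 129 (93.8%). Its median distance was 49.0 bp to the nearest coding TSS and 114 bp to the ncRNA TSS. It lay nearer to the coding TSS in 81 start sites, nearer to the ncRNA TSS in 42, and equally far from both in 6. The coding distance is the smallest over all annotated coding TSSs and the ncRNA distance is to the given TSS, which favours the coding side. Among the 129 were 15 microRNA entries, whose ends are not starts of transcription. Where at least 1 coding neighbour was bound, 123 of 209 ncRNA start sites were bound (58.9%). Where none was, 6 of 374 were (1.6%, interval 0.737 to 3.46). The replicates gave differences of 57.8, 58.1 and 58.0 points, and the exact two-sided sign-flip permutation test again gave its smallest value, p = 0.25. A summit at a coding TSS falls into the ncRNA window through distance alone, so this contrast measures how windows are shared. Beside an unbound neighbour the shared part of the window holds no summit by definition. The 1.6% is therefore not comparable with the 2.04% of start sites with no neighbour. When each summit was counted only for its nearest TSS, the difference in bound share between start sites with and without a coding neighbour was 6.30 points in place of 20.1, and with a window of 100 bp it was 9.54. In the 86 start sites that stayed unbound beside a bound neighbour the median distance between the start sites was 327 bp, against 121 bp where both were bound.

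Only 8 bound start sites with a coding neighbour had their summit farther than 250 bp from every coding TSS. The strongest was asRNA:CR44169, head to head with coro, which encodes the actin-binding protein coronin, at a signal of 2459. All replicates had a summit in its window, at signals of 1345, 605 and 175 and ranks of 790, 2456 and 3004, but this reproducible summit fell within a strong interval of 2 of them. lncRNA:CR45717, 332 bp from the transporter gene MFS3, had a signal of 1045, with its summit 31 bp upstream of its own start. The 5 weakest had signals from 281 to 617 and included asRNA:CR44429 beside gce, a juvenile hormone receptor gene, and lncRNA:CR45438 beside the histone deacetylase gene HDAC1. These 8 were picked out after their values were seen.

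**Figure D3:**
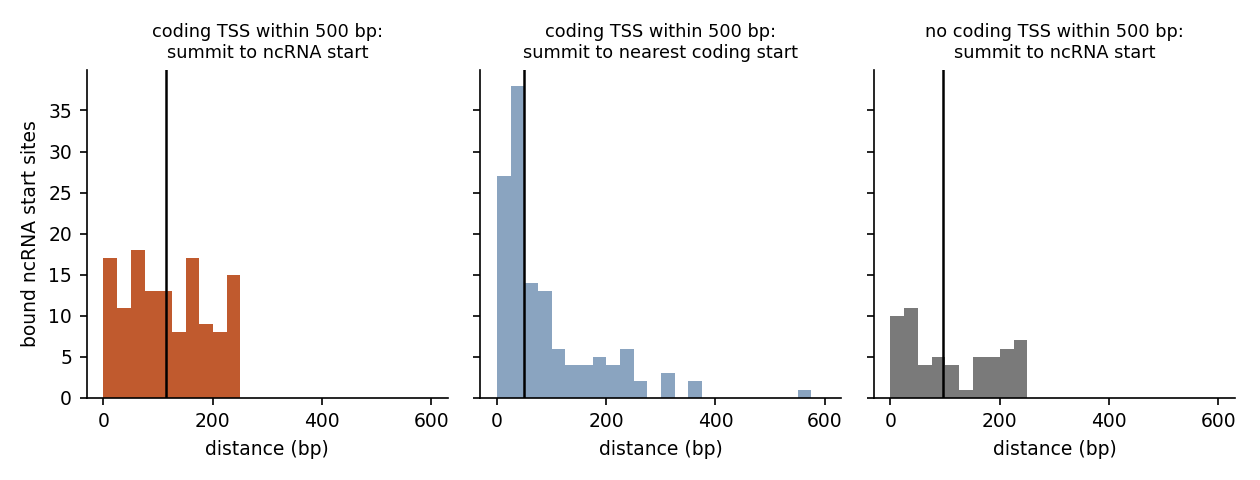
Distance in bp (bins of 25 bp) from the putzig summit to the ncRNA start site (left) and to the nearest protein-coding start site (middle) for the 129 bound ncRNA start sites with a coding neighbour, and to the ncRNA start site for the 58 without (right). Black lines are medians: 114 bp to the ncRNA start and 49.0 bp to the coding start in the first group, while the window sets an upper limit of 250 bp on the left and right panels.

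On the coding side, the difference between start sites with and without an ncRNA start site nearby depended on how start sites were counted. Of 647 protein-coding start sites with an ncRNA TSS within 500 bp, 221 were bound (34.2%), against 6890 of 18960 without (36.3%). The difference was −2.18 points with an interval from −5.80 to 1.62, and −2.62, −2.78 and −0.148 points in the replicates (mean −1.85 ± 1.47, SD, n = 3; exact two-sided sign-flip permutation p = 0.25). It was −5.62 points (interval −9.90 to −1.11) with only the 5′-most TSS of each gene, −4.35 (−7.48 to −0.897) when each summit counted for its nearest TSS alone, and 0.307 (−3.86 to 4.57) by genes. The median signal of bound coding start sites was 1605 with and 1458 without an ncRNA start site, a ratio of 1.10, and 1.07 ± 0.0700 over the replicates.

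The ncRNA start sites without a coding neighbour were compared with protein-coding start sites that likewise had no other coding gene's TSS within 500 bp. Of the latter 3510 of 14453 were bound (24.3%, interval 23.6 to 25), against 2.04% of the ncRNA start sites. The replicates gave 23.8%, 23.8% and 24.4% for the coding start sites, 24.0 ± 0.309 (SD, n = 3), and 2.16 ± 0.411 for the ncRNA start sites. The difference was −21.8 ± 0.138 points over the replicates, negative in 3 of 3 (exact two-sided sign-flip permutation p = 0.25, the smallest possible).

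Peak signal, a deposited value on a scale that is not named, can be compared only within a list. In the reproducible list it runs from 235 to 15079 with a median of 1077. The 129 bound start sites with a coding neighbour ran from 241 to 7870 with a median of 1482 and quartiles of 686 and 2599. The 58 without ran from 239 to 4629 with a median of 493 and quartiles of 350 and 874. The ranges overlapped widely, but 76 of the first and 11 of the second stood above the median of the list. The ratio of the medians was 3.01, a log2 ratio of 1.59.

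Each replicate showed the same order. The medians were 660 and 207 in replicate 1, 604 and 231 in replicate 2, and 185 and 82.7 in replicate 3, which gives ratios of 3.2, 2.62 and 2.24. The log2 ratio was 1.41 ± 0.256 (SD, n = 3), positive in 3 of 3, with an exact two-sided sign-flip permutation p = 0.25. Bound ncRNA start sites beside a coding gene had about the signal of bound coding start sites, with a ratio of 1.01 to all of these (median 1462) and of 0.955 ± 0.0489 over the replicates. As the summit at 121 of the 129 start sites also lies at a coding TSS, this ratio is largely set by shared summits. Those without a neighbour reached 0.383 of the median of isolated coding start sites (1287), and 0.403 ± 0.0426 over the replicates.

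The gap in signal was smaller close to the start site. The summit lay within 100 bp of the TSS at 59 start sites with a coding neighbour and 30 without. The median signals were 1365 and 862. At 70 with and 28 without, the summit lay farther out, up to 250 bp, with median signals of 1549 and 400. With the window itself set to 100 bp the log2 ratio of the medians was 0.51 in place of 1.59, and with coding neighbours counted up to 1000 bp away it was 0.65. Summits lay upstream of the ncRNA TSS in 93 of 129 (72.1%, median position 69 bp upstream) and in 44 of 58 (75.9%, median 73 bp upstream).

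**Figure D4:**
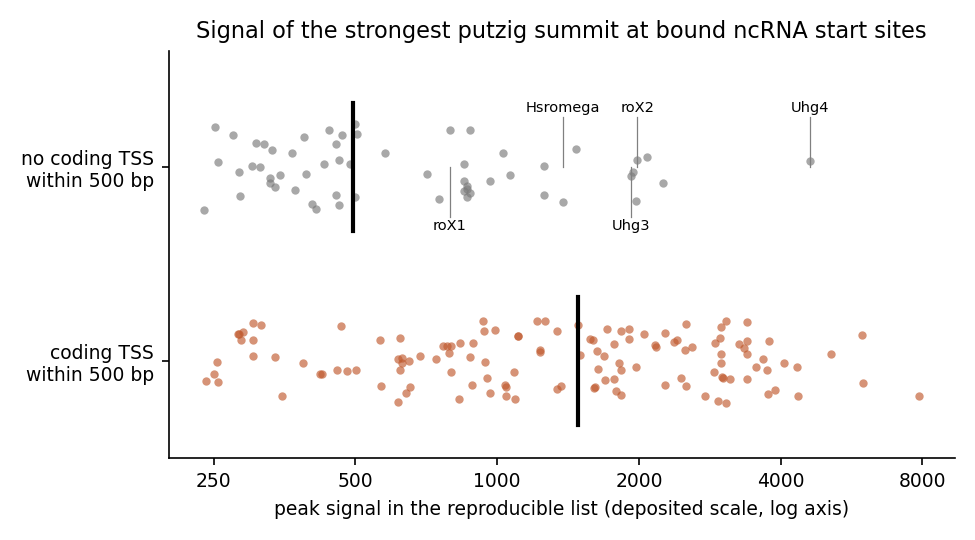
Peak signal in the reproducible list (deposited scale, log axis) at each bound ncRNA start site, in 2 groups by whether a protein-coding TSS lay within 500 bp. Each point is a start site and black bars are medians, 1482 with (n = 129) and 493 without (n = 58), with the strongest Uhg genes, roX1, roX2 and Hsromega named.

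Replicate support was high in both groups. A replicate held a summit when it fell within an interval among its strongest 6522. All 3 replicates held the summit at 110 of the 129 bound start sites with a coding neighbour (85.3%, interval 78.1 to 90.4). They held it at 44 of the 58 without (75.9%, 63.5 to 85.0), a difference of 9.41 points with an interval from −2.21 to 22.8. Start sites are counted here, and they share 116 and 50 distinct summits, so a shared summit counts more than once. For comparison, all 3 held 80.5% of all summits, each counted once, and the summit at 88.7% of bound isolated coding start sites. Replicate 3 held fewest, with 92.2% and 84.5% in the 2 groups, against 96.1% and 94.8% in replicate 1 and 96.1% and 91.4% in replicate 2. Every summit was held by at least 1 replicate. Since the reproducible list was made from these replicates, support is a description and not a test.

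Support followed signal. In the stronger part of the list, ranks 1 to 3261, all replicates held the summit at 74 of 76 start sites with a neighbour. Without a neighbour it was 11 of 11, beside 98.2% of all summits there. In the weaker part, ranks 3262 to 6522, they held the summit at 36 of 53 start sites (67.9%) and 33 of 47 (70.2%). Of all summits there they held 62.9%. Within either part the order of the groups was opposite to that of the whole, on counts too small to resolve it. Among bound start sites with the summit within 100 bp, 52 of 59 with and 27 of 30 without had it held by all. Beyond 100 bp it was 58 of 70 and 17 of 28.

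The strongest summit at any ncRNA start site was that of lncRNA:CR45324, which starts 31 bp from TER94, the gene of an AAA ATPase of protein degradation. Its signal was 7870, rank 41 of 6522, and 3503, 2957 and 1457 in the replicates. The summit lay 86 bp from the nearest coding TSS and 212 bp inside the ncRNA gene. lncRNA:CR44966, whose sequence is given above, followed at 5994 (2671, 2127 and 1215 in the replicates), with its summit 65 bp upstream of its own start and 93 bp from the start of RpL22. lncRNA:CR43130 had 5951 (2759, 2239 and 956) at an inner start of the gene, with the summit 24 bp past that start and 112 bp from the nearest coding start. Its 5′-most start, in the group without a coding neighbour, had a weaker summit with a signal of 285. sisRNA:CR46364 had 5125 (2311, 1895 and 985), and its summit was 23 bp from a start of RpS27. The lowest rank of the strongest summit of any of these 4 genes in any replicate was 211.

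The other 4 of the 8 strongest genes beside a coding start site had signals from 3891 to 4354. asRNA:CR43470 lay head to head with MED4, a Mediator subunit gene, lncRNA:CR44759 with Rtf1, a gene of the Paf1 elongation complex, and hpRNA:CR18854, a hairpin RNA gene, with CG4036. asRNA:CR45305 ran over RpL37A, also a ribosomal protein gene. In 6 of these 8 genes the summit lay closer to a coding start than to the ncRNA start. All 8 of these summits were held by all replicates.

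Without a coding neighbour, Uhg4 stood apart. Its summit had a signal of 4629, rank 250, and 2014, 1811 and 823 in the replicates, where it ranked 274, 248 and 236. The summit lay 79 bp upstream of the Uhg4 start (2R, 9095273) and 536 bp from the nearest coding start, that of Boot, which was not bound. The next was asRNA:CR46453, inside an exon of a coding gene on the opposite strand, at 2254 (1018, 875 and 382 in the replicates). lncRNA:CR44127 had 2086 (959, 795 and 366), with the summit 72 bp upstream of its start.

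roX2, 1707 bp from the kinesin-like gene nod, had a signal of 1984 (813, 866 and 337 in the replicates), with its summit 32 bp upstream of the annotated start. lncRNA:CR45433, at 1975 (853, 798 and 333), lay 8100 bp from the nearest coding start, that of the small GTPase gene Rab8, and its summit was 80 bp upstream. asRNA:CR45009 had 1942 (951, 716 and 331), 3024 bp from stnB, a gene of synaptic vesicle recycling, with the summit 3 bp from its start. Uhg3 had 1921 (868, 690 and 353), with the summit 47 bp upstream. The ranks of these 4 in the replicates overlapped, from 1363 to 2086, so their order was not resolved. Below them came lncRNA:CR44417 at 1468, Hsromega at 1380 and lncRNA:CR43144 at 1259. Each of these 10 was held by all 3 replicates, and in 9 of them the summit lay within 100 bp of the start.

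**Figure D5:**
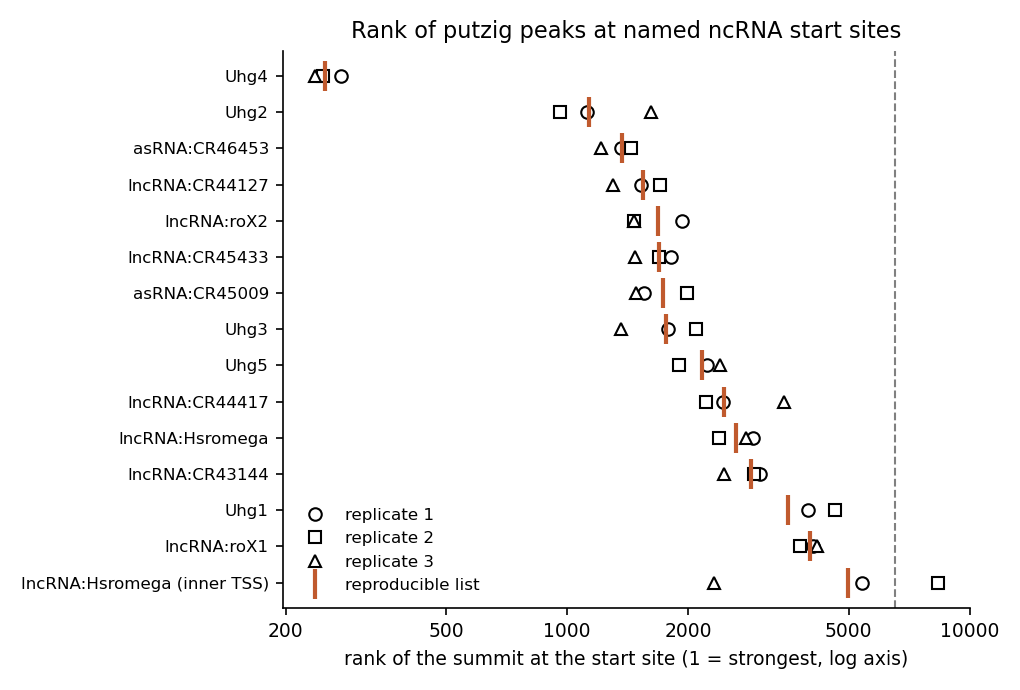
Rank (log axis, 1 is the strongest) of the putzig summit at named ncRNA start sites in the reproducible list (orange bar) and in each replicate's own list (open symbols). The dashed line marks rank 6522, where each replicate list was cut: Uhg4 lies at ranks 236 to 274 in all replicates, Uhg1 has no replicate 3 summit in its window, and the inner start of Hsromega ranges from 2318 to 8319.

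A list of ncRNA genes with known roles was looked up by name. The annotation held 22 of 23 names as ncRNA genes, all but pgc, and 8 of these were bound, beside 5.34% of all ncRNA genes and 30.6% of the start sites of all genes. The names were chosen by hand, so nothing is read from that count. Both roX genes were among them. roX1, like roX2 an RNA of dosage compensation, was bound at 1 of its 3 annotated starts, the 5′-most, with the summit 16 bp inside the gene, a signal of 794 and replicate signals of 340, 370 and 108. Hsromega, a nuclear RNA that accumulates after heat shock, was bound at both starts. At the outer start the summit lay 216 bp upstream, with 1380 (563, 622 and 190 in the replicates), and at the inner one 41 bp upstream, with 487. At that inner start the replicates' own summits had signals of 173, 65.2 and 228 and ranks of 5404, 8319 and 2318. Replicate 2 thus ranked its summit in that window past 6522, although the reproducible summit fell within a strong interval of all 3 replicates.

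The Uhg genes, part of the list chosen by hand, were bound in 5 of 7 cases (71.4%, interval 35.9 to 91.8). The replicates gave 71.4%, 71.4% and 57.1%. Over all ncRNA start sites the share was 5.46%, and over the start sites of all genes 30.6%. With 7 start sites, nothing is read from this count. Uhg4 and Uhg3 are described above, and Uhg1 had no coding neighbour either. Uhg1 had a signal of 964 and was held by 2 replicates, with 361 and 254 in replicates 1 and 2 and no summit in the window in replicate 3. Uhg2, head to head with Bka, had 2501 (1142, 1083 and 311), and Uhg5, head to head with CG12863, had 1634 (722, 740 and 221). In all 5 the summit lay upstream of the annotated start, between 39 and 85 bp away. Uhg7, inside a coding gene and 1347 bp from the start of the ribosomal protein gene RpL23A, was not bound. Uhg8 was not bound in the reproducible list, and its replicate ranks of 7102, 7577 and 6540 were all just past the strongest 6522.

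The remaining names were not bound. They were bxd and iab8 of the bithorax complex, let7C, which carries the let-7 microRNA, yar between yellow and the achaete genes, sphinx, acal, CRG, the microRNA gene mir-bft, both genes of the signal recognition particle RNA (7SLRNA), and the RNA subunits of RNase P and RNase MRP. Of these acal came nearest, with summits in all 3 replicate lists at ranks 7975, 8726 and 8485. No replicate list had a summit at any start of bxd, yar, sphinx, CRG, mir-bft, either 7SLRNA gene or RNase P RNA, background entries included.

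Unbound ncRNA genes also stood beside strong coding peaks. The strongest such coding start was that of ATPsynC, an ATP synthase subunit gene, with a signal of 10482, and the 3 entries beside it, mir-4949 and its mature products, began 187 to 248 bp away on the same strand. As these belong to 1 microRNA locus, the next 3 genes of other classes were added after their values were seen. They were asRNA:CR43467, 264 bp from CG18011 (6078), lncRNA:CR44060, 369 bp from drongo (5825), and asRNA:CR44224, 478 bp from the myosin gene Myo31DF (5479).

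Start sites of asRNA genes were bound more often than those of lncRNA genes, and more of them had a coding neighbour. Of 545 asRNA start sites 63 were bound (11.6%; replicates 11.0%, 11.2% and 11.4%), and of 2064 lncRNA start sites 98 (4.75%; replicates 4.89%, 4.26% and 5.43%). With a coding neighbour the shares were 25.3% (50 of 198) and 22.1% (60 of 272), with overlapping intervals. Without one they were 3.75% (13 of 347, interval 2.20 to 6.30) and 2.12% (38 of 1792, 1.55 to 2.90), which overlapped too. MicroRNA entries were bound in 19 of 741 cases (2.56%). The 15 with a coding neighbour lay under 6 summits, since a hairpin and its products share a summit, and the 4 without lay under 2. mir-34, 7406 bp from the RNA-binding protein gene Fmr1, was the stronger of these, at 851 (305, 425 and 128 in the replicates), with its summit 166 bp upstream of the hairpin. Of the 40 start sites without a neighbour that belonged neither to these classes nor to the Uhg genes, none was bound, which allows a share of up to 7.5%.

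By chromosome, the share with a coding neighbour was 18.8% on 2L, 23.7% on 2R, 19.2% on 3L, 18.9% on 3R and 32.3% on X (30 of 93, interval 23.6 to 42.3; replicates 30.1%, 32.3% and 34.4%). Of the 30 on X, 9 were microRNA entries under 3 summits. Without microRNA entries X had 27.3% (21 of 77, interval 18.6 to 38.1) and 2R had 27.9% (31 of 111). Without a coding neighbour the shares were 1.71%, 2.65%, 1.37%, 2.12% and 2.17% in the same order, with overlapping intervals. On chromosome 4, 1 of 8 start sites with and 3 of 26 without a neighbour were bound, the latter 11.5% with an interval from 4.0 to 29.0 and 19.2%, 7.69% and 11.5% in the replicates. asRNA:CR44030 and lncRNA:CR45201 on that chromosome were transcribed away from each other and shared a summit of signal 874, which lay 5 bp upstream of the first and 236 bp upstream of the second.

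The start sites without a neighbour were divided by whether they lay inside coding genes. Outside protein-coding genes 42 of 1647 were bound (2.55%, interval 1.89 to 3.43; 2.71 ± 0.426 over the replicates), at a median signal of 773. Inside coding genes 16 of 1194 were bound (1.34%, 0.827 to 2.17; 1.40 ± 0.396), at a median of 434. These intervals overlapped, and 407 of the 1194 inside were microRNA entries, against a smaller number outside. The part of these entries in the difference was not tested. Inside a coding gene on its own strand the shares were 2 of 407 in introns (0.491%) and 0 of 114 in exons, which allows up to 2.63%. Of the 407 in introns 244 were microRNA entries. The bound start sites without a neighbour lay nearer to a coding TSS than the unbound ones, with a median distance to the nearest of 1602 bp against 3552 bp. Of the 58, 44 had no TSS of any other gene of any class within 500 bp, as had 1983 of all 2841 start sites without a neighbour. The bound share was 2.22% of these 1983 and 1.63% of the other 858.

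Summits below the reproducible threshold were also more frequent with a coding neighbour. Of the 454 unbound start sites with a coding neighbour 22.2% had a summit of any strength in the pooled list of 30000 entries, which includes background. Of the 2783 unbound ones without a neighbour 11.6% did, and of unbound isolated coding start sites 23.6%. A summit in all 3 replicate lists of any strength was found at 7.71%, 2.62% and 8.47% of these in the same order.

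Promoter motifs were counted in windows reaching 250 bp to each side of the start sites, on both strands. The DRE, TATCGATA, reads the same on both strands. TATCGATA and TATAAAA can overlap by their end letters, and each window was counted once per motif. The DRE occurred in 7.25% of the windows of all genes and in 1.72% of the ncRNA windows. Among ncRNA start sites with a coding neighbour it was in 21 of 129 bound windows (16.3%) and 8 of 454 unbound ones (1.76%). Without a neighbour it was in 4 of 58 bound (6.90%) and 26 of 2783 unbound (0.934%). Motif 1, GGTCACAC, was in 6.30% of all windows, and in 12.4%, 1.10%, 6.90% and 0.791% of these 4 classes. TATAAAA was in 27.1% of all windows and in 30.2%, 24.0%, 31.0% and 21.9% of the 4 classes. GAGAGAG, the sequence of GAGA factor sites, was in 9.14% of all windows and in 6.98%, 11.2%, 10.3% and 7.37%. For bound isolated coding start sites the shares were 18% for the DRE and 16.8% for Motif 1. With a coding neighbour, the ncRNA window can also cover the promoter of the coding gene. The summit at 121 of the 129 bound start sites lay within 250 bp of a coding TSS. Windows of nearby start sites overlap, so a single match can count more than once. Which gene a match belongs to was not tested.

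In the windows of 201 bp at the summits themselves, the DRE was in 14.5% and Motif 1 in 12.7% of all 6522. Of the 116 distinct summits with a coding neighbour 19 (16.4%) held the DRE and 8 (6.90%) Motif 1. Of the 50 distinct summits without, 3 (6.00%) held each, a number too small to place either share below that of all summits. TATAAAA was in 11.6% of all summit windows, 13.8% with a neighbour and 6.00% without, and GAGAGAG in 3.43%, 2.59% and 2.00%. The summits without a neighbour that held the DRE were those of lncRNA:CR44417, asRNA:CR45525 and lncRNA:CR46475. Motif 1 was at roX2, as printed above, at asRNA:CR43609 and at lncRNA:CR43334. A match is a description of the letters, not a site of binding.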

How the data were processed

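Putzig-GFP ChIP-seq of 3 replicate embryo samples was analysed from 5 deposited peak lists in dm6. Per the labels, chromatin was sonicated to 200 to 800 bp. Per the deposited notes, the authors made each replicate's list from its own alignment and a control alignment, pooled the replicates for another list, and thresholded this by the irreproducible discovery rate (IDR). Aligner and caller: not given in the sources used here. In each list, deposited peak signal has no named scale and was used only within a list. The deposited −log10 q-values reach a ceiling and were not used for ranking. Replicate and pooled lists hold 30000 entries each, background included. The 6522 reproducible entries are the 6522 strongest of the pooled list, so they are not independent of the replicates. Each replicate list was cut to its strongest 6522. No 2 replicate lists shared an identical interval. Read depth is unknown.

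Genes came from Ensembl release 115 and sequence from the RefSeq genome of the same assembly, in which 16193 of 16213 start codons tested (99.9%) read ATG and 0 peaks passed a chromosome end. Summits and start sites were matched with Python 3.11.15, numpy 2.4.6, scipy 1.17.1 and pandas 2.3.3, and the matching was tested on simulated data against an exhaustive search. Values are from the reproducible list, and errors are the SD over the 3 replicates. Nothing in the labels pairs the samples. The sign-flip permutation test gives its smallest p-value whenever all 3 replicates share a sign. The SD, and not this p-value, describes the spread between these samples. Wilson and Newcombe intervals are 95%. Overlap of 2 Wilson intervals is a description and does not test the difference between the shares. A share of 0 is given the limit of 3 counts. Alternatives are given in the closing section. The genes named are the 8 strongest with and the 10 strongest without a coding neighbour (the 5 strongest with no other start site of any class near are among them), 3 unbound genes beside the strongest coding peaks, and a list fixed by name. Some items are not reported here. The set of start sites, the lists and the tests were chosen with earlier results of these data known.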

Additional observations from a re-analysis of the deposited data

How the results depend on the processing

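The bound share stayed higher, and the signal stayed higher, with a coding neighbour than without under every alternative run, and isolated ncRNA start sites stayed below isolated coding ones. The sizes depend on distance settings. For the share (20.1 points as reported) they were 9.54 and 31.1 with windows of 100 and 500 bp, 27.1 and 13.2 with a neighbour limit of 250 and 1000 bp, 12.6 for peaks above the median signal, 17.3 for peaks held by all replicates, 29.7 by interval overlap and 6.30 when each summit counted only for its nearest TSS. For the signal (log2 ratio 1.59) the same settings gave 0.51 (100 bp window), 1.04 and 0.65 (neighbour limits), 0.30 (above the median), 1.10 (held by all) and 1.17 (nearest TSS). For isolated ncRNA against isolated coding start sites (−22.2) they gave −18.3, −24.3, −27.3, −19.9, −13.5, −20.0, −24.1 and −19.6 in the order of the first list, −25.5 with the 5′-most TSS, −26.9 by genes and −21.8 without microRNA entries. For a bound against an unbound coding neighbour (57.2) they gave 24.4, 87.3, 90.4, 36.0, 55.2, 55.3 and 83.6, then 54.1, 56.6 and 61.7. This contrast turned to −1.35 when each summit counted only for its nearest TSS. In that setting a summit counts for both neighbours only where it is equally far from both. Replicate support (9.41) turned to −6.45 with the 100 bp window and to −2.63 above the median signal, and the cause was not tested. The coding start sites with and without an ncRNA start site (−2.18) gave −4.35 by nearest TSS, −5.62 with the 5′-most TSS and 0.307 by genes. Leaving out each replicate in turn gave 17.9 to 18.6, a log2 ratio of 1.10 to 1.58, −21.1 to −20.3, 55.4 to 57.0 and −2.73 to −1.72 for these comparisons. It uses the reproducible peaks held by the replicates kept, so it also removes peaks. Peaks held by all and leaving out a replicate gave no value for support, which they fix. No paired analysis was possible because the series has only 1 group. Read depth is unknown, so a start site with no summit may hold putzig below what the lists can show, and whole embryos hide cell types.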
